A study of Mus musculus with 6 samples.

Results

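The translation initiation and elongation factors were taken as every probe set annotated to exactly 1 gene symbol that starts with Eif or Eef followed by a digit, leaving out Eif2s3x, Eif2s3y and the Eif2ak kinases. This rule took 137 probe sets of 52 genes, out of 45101 probe sets on the array, of which 34958 carry exactly 1 symbol for 18194 genes. It uses names alone and no measured value. A further 8 probe sets name a factor together with another gene, and 18 belong to the excluded Eif2ak and Eif2s3 genes. Eif1, Eif2s1, Eif3g, Eif4g1 and Eef1g have no probe set that carries their symbol alone and were not analysed here as members.

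Liver RNA was measured on 1 Affymetrix mouse array per animal in 3 mutants, B6.Alb/cre,Pdss2loxP/loxP, and in 3 controls, B6.Pdss2loxP/loxP, all of them male. Pdss2 encodes a subunit of the enzyme that makes the isoprenoid tail of coenzyme Q. Both groups carry Pdss2 alleles flanked by loxP sites, and in the mutants an albumin promoter drives cre, so the deletion is directed to hepatocytes while the other cells of the liver are expected to keep the gene. Mutants 1 to 3 were 176, 178 and 224 days old and controls 1 to 3 were 209, 213 and 140 days old, the genotypes were caged apart, and the labels make control 1 the concurrent control of mutant 3. Values are on a log2 scale, so a difference of 1 is a doubling, and every difference is mutant minus control.

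Translation initiation loads the small ribosomal subunit with initiator tRNA, brings it to the capped end of an mRNA, scans to a start codon and joins the large subunit. Elongation factors then deliver each aminoacyl-tRNA and move the ribosome along. Cells adjust the rate mainly by phosphorylating eIF2 or releasing the inhibitors that hold the cap-binding protein, and many mRNAs of this machinery begin with a pyrimidine tract through which the growth kinase mTOR regulates their own translation. The liver exports much of what it makes as plasma protein, and these factors are abundant in hepatocytes.

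Of the members, 100 had a mean over the 6 arrays above the median of all probe sets and 13 lay under the lower quartile. The deposited values come with no background measure, so a low reading cannot be told apart from background. In bulk tissue, fewer cells of a type and less RNA per cell cannot be told apart either.

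Several features of the whole series bear on what follows. The Pdss2 probe set 1444085_at read 6.94, 6.88 and 7.05 in mutants 1 to 3 against 7.46, 7.47 and 7.56 in controls 1 to 3, a difference of −0.54 with an exact permutation p of 0.1, the smallest that 3 against 3 mice allow. The other Pdss2 probe sets differed by 0.40 and 0.35, with groups that overlapped, and where each probe set lies relative to the deletion was not analysed here. The Gapdh 3' minus 5' control reading was 0.45, −1.06 and −1.78 in the mutants and 2.31, 2.02 and 2.30 in the controls, with the same exact p of 0.1. The Actb 3' minus 5' reading did not separate the groups, at 2.60, 3.95 and 4.50 in the mutants and 3.82, 3.90 and 3.11 in the controls. Its difference was 0.07, with an exact permutation p of 0.8. The 3' probe sets of the spike-ins BioB, BioC, BioDn and CreX were higher in the mutants by 1.82, 1.68, 1.36 and 0.54. Each had an exact permutation p of 0.1. Genes of oxidative phosphorylation, by symbol, had a median of −0.62 over 179 probe sets. After each probe set was centred on its mean, their median per mouse was 0.14, −0.36 and −0.79 in the mutants and 0.29, 0.32 and 0.40 in the controls. At a Benjamini-Hochberg adjusted p under 0.05 in limma 4 of these probe sets were higher and 2 lower. At an unadjusted p under 0.05, 12 were higher and 78 lower. The study describes this pathway as higher in its mutants, the opposite direction. It used gene set enrichment on a signal-to-noise ranking, an unlike measure. Directions here follow the sample labels. The Pdss2 probe sets, lower in the mutants at 1444085_at alone, cannot check those labels while their positions relative to the deletion are unknown. The part of RNA quality in any result was not tested.

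The factors moved in both directions around a median near 0. Their median difference was −0.06, from −1.92 to 1.44, with 63 probe sets above 0 and 74 below, while the median over all 45101 probe sets was 0.17. At a Benjamini-Hochberg adjusted p under 0.05 in limma, fitted over all probe sets, 3 members passed, which is 2.19% of them beside 2.13% of all probe sets. These were 1 higher probe set, beside a background of 1.33% higher, and 2 lower ones, beside a background of 0.8% lower. The share of calls among the factors was near that of the array.

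A looser count leaned lower. At an unadjusted p under 0.05, 17 members were higher, or 12.4%, where all probe sets gave 15.7%, and 28 were lower, or 20.4%, where all probe sets gave 9.53%. All mutants lay above all controls in 21 members, or 15.3%, with 21.2% across the array, and below in 28 members, or 20.4%, with 10.7% across the array. Once each array was centred on its median, which moved the median of all probe sets to 0.01 and that of the members to −0.22, the unadjusted counts were 12 higher and 39 lower among the members, with 8.71% and 13.0% across the array. Most members are bright, and the array's lower share was itself larger among bright probe sets, those with a mean above the median of all. In a fit of these alone, 13 of the 100 members were higher and 25 lower at an unadjusted p under 0.05. All bright probe sets gave 18.4% higher and 16.5% lower, so the lower lean of the members was smaller against this background. The lean to the lower side was described and not tested, and probe sets of 1 gene are not independent of each other.

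**Figure D1:**
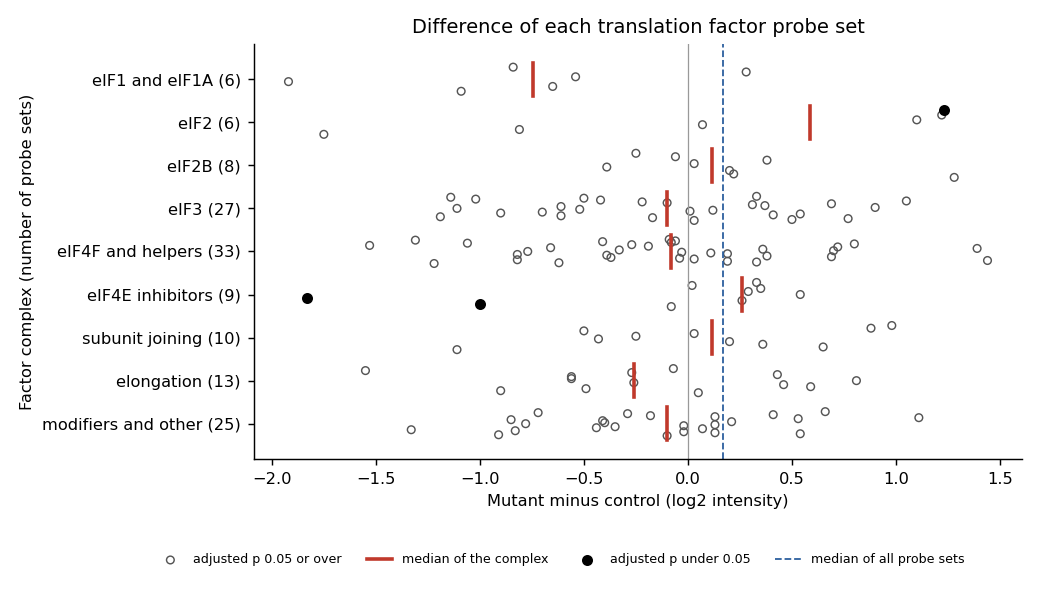
Each point is 1 probe set, placed by its factor complex and by its mutant minus control difference on the log2 scale, with the median of the complex as a bar, the median of all probe sets as a dashed line and filled points where the adjusted p was under 0.05. The 137 differences run from −1.92 to 1.44, and the complex medians run from −0.75 for eIF1 and eIF1A to 0.59 for eIF2.

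The start codon factors eIF1 and eIF1A, which hold the scanning ribosome open until the start codon is found, had the lowest median of the complexes, −0.75 over 6 probe sets of 3 genes. 4 of the 6 were lower at an unadjusted p under 0.05, and none passed the adjusted p. The X-linked gene of eIF1A, Eif1ax, named after its values were seen, held the lowest member. Its probe set 1419736_a_at read 8.61, 6.62 and 6.81 in mutants 1 to 3 against 9.15, 9.42 and 9.24 in controls 1 to 3. All mutants lay below all controls, by −1.92 (SE 0.49, adjusted p = 0.0724 in limma), with mutant 1 much nearer the controls. The other Eif1ax probe sets differed by −0.54 and 0.28, and their groups overlapped. The autosomal copy Eif1a differed by −1.09 at 1424344_s_at (adjusted p = 0.0599) and by −0.65 at 1424343_a_at. These copies are near-identical genes, and an s_at probe set can match more than 1 transcript, so their readings cannot be assigned to 1 copy with certainty. Eif1b differed by −0.84, with readings of 7.03, 5.98 and 5.98 in the mutants against 7.19, 7.07 and 7.26 in the controls. Taking each mouse's median over these 6 probe sets, each centred on its own mean, gave 0.16, −0.76 and −0.54 in the mutants and 0.45, 0.42 and 0.38 in the controls.

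**Figure D2:**
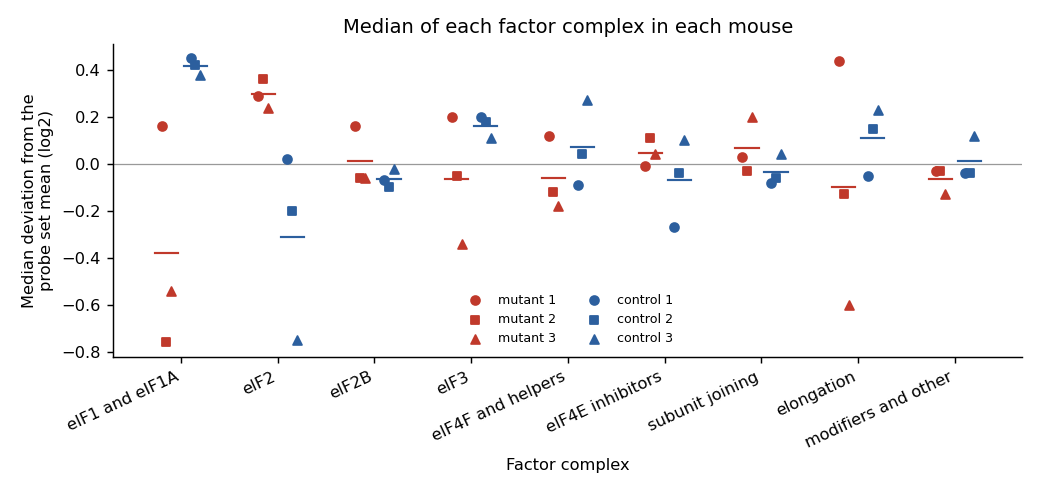
For each factor complex, points give each mouse's median over the probe sets of that complex after every probe set was centred on its mean over the 6 arrays (log2 scale), with mutants in red, controls in blue, circles, squares and triangles for mice 1, 2 and 3, and a line at each group mean. Mutants all lie below controls for eIF1 and eIF1A and all above for eIF2, and they overlap the controls in the other complexes.

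The eIF2 complex carries initiator tRNA to the small subunit, and its beta subunit is encoded by Eif2s2, the eIF2 gene with member probe sets. The probe set 1417713_at of Eif2s2 read 11.98, 12.45 and 12.12 in mutants 1 to 3 against 11.21, 11.07 and 10.59 in controls 1 to 3. It rose by 1.23 (SE 0.24), to 2.34 times the control level, with an adjusted p of 0.0495 in limma, and was the only member that rose at that threshold. Other probe sets of the same gene leaned the same way, 1448820_a_at by 1.10 (adjusted p = 0.0552) and 1456617_a_at by 1.22 (adjusted p = 0.0593). All mutants were above all controls in each of these 3.

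Eif2s2 also held probe sets of the opposite sign. The probe set 1417712_at read 9.20, 7.45 and 7.81 in the mutants and 9.80, 9.92 and 9.99 in the controls, a difference of −1.75 (SE 0.42, adjusted p = 0.0672 in limma). At 1448819_at the readings were 6.08, 5.26 and 5.67 against 6.44, 6.47 and 6.53, a difference of −0.81 (adjusted p = 0.0980). All mutants lay below all controls in both. The sixth, 1441023_at, differed by 0.07 and overlapped between the groups. The 3 probe sets with higher mutant readings were the 3 brightest of the gene. The position of each probe set on the transcript was not analysed here, and the mRNA of Eif2s2 had no single direction in these data.

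**Figure D3:**
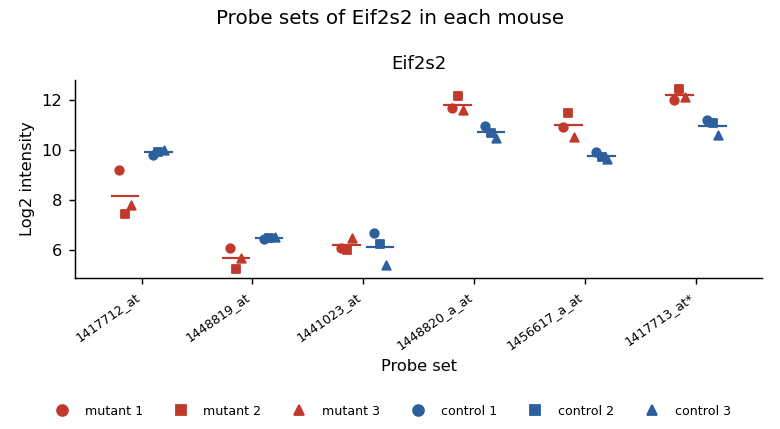
The log2 reading of each Eif2s2 probe set in each mouse, with mutants in red, controls in blue, circles, squares and triangles for mice 1, 2 and 3, a line at each group mean, and an asterisk on the probe set with an adjusted p under 0.05. Mutants lie above controls in 1417713_at, 1448820_a_at and 1456617_a_at, below them in 1417712_at and 1448819_at, and among them in 1441023_at.

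The exchange factor eIF2B reloads eIF2 with GTP and is the enzyme blocked when eIF2 is phosphorylated. Its 8 probe sets of 5 genes had a median of 0.11, which became −0.05 once arrays were centred, and an unadjusted p under 0.05 was reached by 1 higher probe set and 0 lower ones. The catalytic subunit Eif2b5 differed by 0.20 and 0.22 at its probe sets, and the groups overlapped in both. The regulatory subunit Eif2b1, named after its values were seen, read 8.36, 9.64 and 8.45 in the mutants and 7.36, 7.38 and 7.87 in the controls, a difference of 1.28 (SE 0.36, adjusted p = 0.0878 in limma). Mutant 2 read highest there, and all mutants were above all controls.

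The scaffold eIF3, the largest initiation complex, had a median of −0.10 over 27 probe sets of 11 genes, with 3 higher and 6 lower at an unadjusted p under 0.05 and none past the adjusted p. The largest subunit, Eif3a, had 4 probe sets, with differences of 0.03, 0.90, 1.05 and 0.54. The only one whose groups did not overlap was 1416661_at, at 7.34, 7.89 and 6.92 in the mutants and 6.73, 6.18 and 6.08 in the controls (adjusted p = 0.0905 in limma). The probe set 1416660_at of Eif3a, in contrast, was high in mutant 2 and control 3, at 10.37 and 9.10, and between 7.12 and 7.98 in the other mice.

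Eif3c and Eif3h, both subunits of the scaffold, each had probe sets on both sides. The x_at probe set 1456083_x_at of Eif3c read 9.21, 8.83 and 8.56 in the mutants and 9.77, 9.77 and 9.76 in the controls, a difference of −0.90 (adjusted p = 0.0678 in limma), and 1415858_at differed by −0.61 (unadjusted p = 0.0458 in limma's fit). Against these, 1415859_at of Eif3c differed by 0.77 (unadjusted p = 0.0465 in limma's fit). Eif3h read 8.93, 7.07 and 7.03 at 1415962_at in the mutants and 8.82, 8.76 and 9.0 in the controls, with mutant 1 within the controls and mutants 2 and 3 far below. At 1434324_x_at of Eif3h the difference was 0.69, but all 6 readings lay between 2.88 and 3.93, near the bottom of the scale.

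Cap recognition falls to eIF4F, made of the cap-binding protein eIF4E, the scaffold eIF4G and the helicase eIF4A, with eIF4B and eIF4H as helpers of the helicase. The 33 probe sets of these 9 genes had a median of −0.08, with 4 higher and 7 lower at an unadjusted p under 0.05, and none passed the adjusted p. The cap-binding gene Eif4e read 7.97, 7.58 and 7.35 in the mutants and 8.55, 8.40 and 8.26 in the controls at 1423220_at, a difference of −0.77 (SE 0.23, adjusted p = 0.0933 in limma). At 1444010_at it read 6.90, 7.98 and 7.72 against 5.60, 5.84 and 6.84, a difference of 1.44 (SE 0.40, adjusted p = 0.0841), the highest of all members. The groups did not overlap in either, in opposite directions, and the remaining Eif4e probe sets differed by −0.19 and −0.06.

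The helicase gene Eif4a1 differed by −1.22 at 1427058_at, −0.04 at 1430980_a_at and 0.11 at 1434985_a_at. At the first of these the mutants read 9.24, 7.66 and 7.67 and the controls 9.36, 9.22 and 9.65 (adjusted p = 0.130 in limma). Its close relative Eif4a2 has 1 probe set, at 10.18, 9.29 and 10.34 in the mutants and 10.61, 10.64 and 10.54 in the controls, a difference of −0.66 (adjusted p = 0.208). All mutants were below all controls for Eif4a2, and mutant 2 read lowest.

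The helicase helper Eif4h opposed itself as well. Its probe set 1438554_x_at read 9.54, 7.92 and 7.58 in the mutants and 9.82, 9.78 and 10.04 in the controls, a difference of −1.53, and 1416941_s_at differed by −1.31 (adjusted p = 0.102 and 0.0862 in limma). At 1447070_at the mutants read 7.80, 8.45 and 8.0 and the controls 7.12, 7.23 and 7.50, a difference of 0.80 (adjusted p = 0.0931). Mutants and controls did not overlap in any of the 3. Among the other genes of the group, named after their values were seen, the eIF4E relative Eif4e3 differed by 1.39 at 1417978_at (9.85, 9.84 and 9.39 against 9.0, 8.20 and 7.72) and the scaffold relative Eif4g2 by −1.06 at 1452758_s_at (9.96, 9.28 and 8.91 against 10.44, 10.49 and 10.40). Their adjusted p values were 0.0677 and 0.0776 in limma. The other Eif4e3 probe set differed by 0.19, and the other 4 of Eif4g2 by −0.62, −0.37, −0.03 and 0.72.

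**Figure D4:**
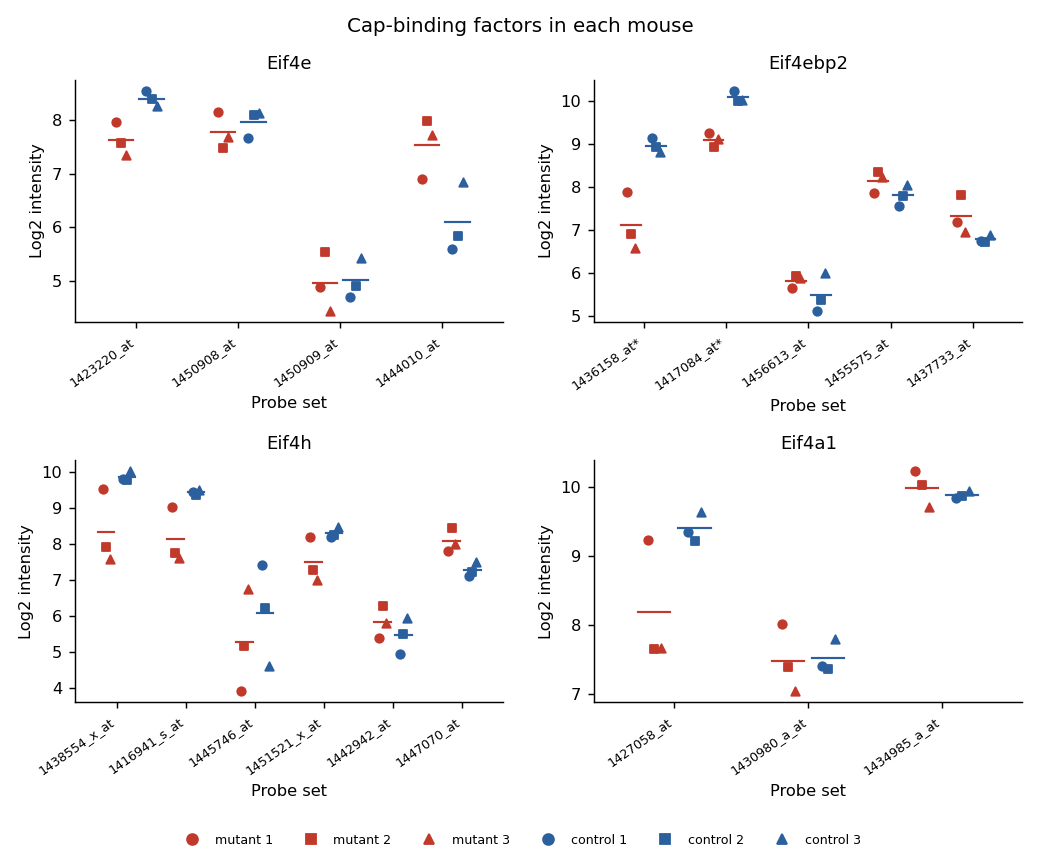
The log2 readings, by mouse, of the probe sets of cap-binding and helicase genes and of the eIF4E inhibitors, with mutants in red, controls in blue, circles, squares and triangles for mice 1, 2 and 3, a line at each group mean, and an asterisk where the adjusted p was under 0.05. The asterisks stand on 1436158_at and 1417084_at of Eif4ebp2, where all mutants lie below all controls.

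The Eif4ebp proteins hold the cap-binding protein away from eIF4G until mTOR phosphorylates them. Eif4ebp2, which encodes such a protein, held both members that fell at the adjusted threshold. Its probe set 1436158_at read 7.88, 6.90 and 6.59 in mutants 1 to 3 against 9.13, 8.92 and 8.82 in controls 1 to 3, and fell by 1.83 (SE 0.34, adjusted p = 0.0459 in limma) to 0.28 times the control level. The probe set 1417084_at read 9.25, 8.92 and 9.11 in the mutants and 10.24, 10.01 and 10.02 in the controls, and fell by 1.00 (SE 0.19, adjusted p = 0.0491) to 0.501 times the control level. No mutant overlapped a control in either.

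The other 3 probe sets of Eif4ebp2 differed by 0.33, 0.35 and 0.54, and in 1437733_at, at 7.19, 7.82 and 6.96 against 6.75, 6.71 and 6.88, all mutants were above all controls. The related Eif4ebp1 differed by 0.02, −0.08 and 0.29, and its groups overlapped in all 3 probe sets. The inhibitors as a whole, counted with Eif4enif1, had a median of 0.26 over 9 probe sets of 3 genes. Eif4enif1, which is not of the Eif4ebp type, differed by 0.26 at 1431075_a_at, and its groups overlapped.

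All 3 calls, that of Eif2s2 and those of Eif4ebp2, sat close to the threshold. Quantile normalization gave adjusted p values from 0.0544 to 0.0624 and centring each array on its median from 0.0555 to 0.0751. With mutant 3 and its concurrent control 1 as a block the values were 0.0593 to 0.0656, and all 3 were lost without any 1 mouse other than mutant 1, at 0.092 to 0.188. The directions of the 3 were the same in each of these.

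Subunit joining rests on eIF5, which triggers GTP hydrolysis by eIF2, on eIF5B, which joins the subunits, and on eIF6, which keeps free large subunits from joining early. The 10 probe sets of these 3 genes had a median of 0.12, or −0.04 once arrays were centred, with 2 higher and 2 lower at an unadjusted p under 0.05. At 1454664_a_at, its brightest probe set, Eif5 read 12.04, 12.52 and 12.35 in the mutants and 11.69, 11.40 and 11.16 in the controls, a difference of 0.88 (SE 0.23, adjusted p = 0.0750 in limma). At 1433631_at it read 8.42, 7.53 and 8.34 against 9.32, 9.13 and 9.17, a difference of −1.11 (SE 0.27, adjusted p = 0.0677), and at 1415723_at the difference was −0.50. The groups did not overlap in these, again in both directions. Eif6 differed by 0.03 and 0.20 and its groups overlapped. Eif5b, named after its values were seen, read 7.37, 7.80 and 7.54 against 6.50, 6.73 and 6.55 at 1434605_at, a difference of 0.98 (adjusted p = 0.0530), and differed by −0.25 and 0.36 at its other probe sets.

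**Figure D5:**
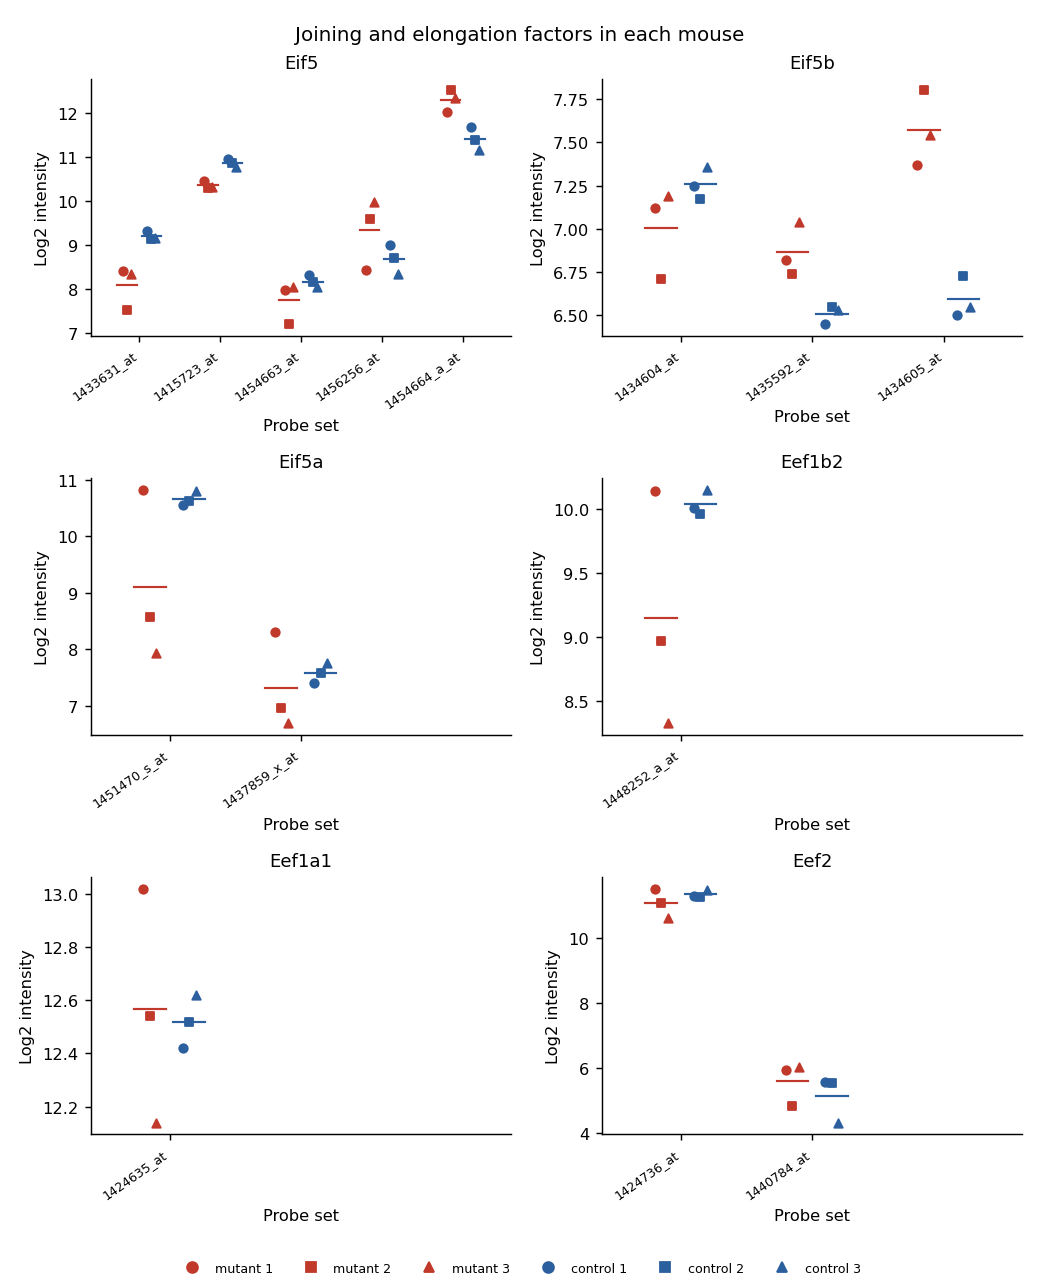
The log2 readings, by mouse, of probe sets of subunit joining and elongation genes, with symbols and colours as in the plot of the Eif2s2 readings and a scale of its own for each gene. Eif5 has mutants above controls at 1454664_a_at and below at 1433631_at, and for Eif5a at 1451470_s_at mutant 1 lies with the controls while mutants 2 and 3 lie more than 1 unit below.

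The elongation factors include the most abundant proteins of translation. Eef1a1, which delivers aminoacyl-tRNA, read 13.02, 12.54 and 12.14 in the mutants and 12.42, 12.52 and 12.62 in the controls, a difference of 0.05 (SE 0.25), with the mutants on both sides of the controls. Eef2, which moves the ribosome by a codon, read 11.50, 11.07 and 10.59 against 11.27, 11.24 and 11.47 at its brighter probe set, a difference of −0.27. Eef1b2, a nucleotide exchange subunit for eEF1A, read 10.14, 8.97 and 8.33 against 10.01, 9.96 and 10.15, a difference of −0.90 (adjusted p = 0.229 in limma). In Eef1b2, as in the bright Eef2 probe set, mutant 1 lay within or above the controls and mutants 2 and 3 below them.

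That order was widest in Eif5a, the hypusine-bearing factor that relieves stalled ribosomes. Its probe set 1451470_s_at read 10.83, 8.57 and 7.94 in the mutants and 10.55, 10.62 and 10.80 in the controls, a difference of −1.55 (SE 0.66, adjusted p = 0.192 in limma). An s_at probe set can match more than 1 transcript. The other, 1437859_x_at, read 8.31, 6.97 and 6.69 against 7.4, 7.58 and 7.76. Over the 13 elongation probe sets of 7 genes the median was −0.26, a value that became −0.50 without mutant 1, −0.08 without mutant 2, −0.02 without mutant 3, −0.17 without control 3 and −0.01 with the mean of the probe sets per gene. Of these 13, 2 were higher and 1 lower at an unadjusted p under 0.05. Eef1a2, the form of muscle and neurons, read 9.17, 7.58 and 6.76 against 8.06, 8.43 and 8.71, while the 6 probe sets of the muscle markers Myh1, Acta1 and Ckm had a median of 0.41.

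Several of these mRNAs are known as 5' TOP mRNAs, which begin with a C followed by a run of pyrimidines. Start site sequences are shown for the listed TOP genes with a RefSeq promoter entry and for the 2 genes with called members, from 5 bases before to 25 after the annotated start, build GRCm38.p6, in the direction of transcription. Capitals mark a C followed by at least 4 further bases that are each C or T.
Eef1a1, chr9:78481700-78481729, minus strand: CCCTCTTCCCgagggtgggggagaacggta
Eef1b2, chr1:63176826-63176855, plus strand: gttccgccggaagtagccgaggccttgcgt
Eef2, chr10:81176626-81176655, plus strand: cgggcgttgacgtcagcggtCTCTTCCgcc
Eif3f, chr7:108934410-108934439, plus strand: gCTCTCTCTCTTTCTCggcaagatggcttc
Eif4b, chr15:102073768-102073797, plus strand: tcggacgccgcgccaCCCCCTCgcgctgct
Eif4ebp2, chr10:61452645-61452674, minus strand: cgggacgaccgggcgagagcaggcgagttg
Eif2s2, chr2:154892882-154892911, minus strand: tggctttactgtacgcctgcgctttggcga

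Such a run, anywhere in this window and searched on the transcribed sense only, was present in 4 of the 5 listed TOP promoters, in 19 of 55 promoters of all members (34.5%) and in 11380 of 32851 RefSeq promoters (34.6%). The search did not require the run to sit at the start, and in Eef2 and Eif4b it lay downstream of the annotated start. These shares therefore do not count mRNAs that begin with such a tract. The annotated start of a gene can differ from the start used in liver. The TOP list, 8 genes with 19 probe sets, had a median difference of 0.01, from −1.19 to 0.69, with 10 above 0 and 9 below and none past the adjusted p in limma, while 2 were higher and 1 lower at an unadjusted p under 0.05. Regulation through this tract acts on translation, which an array of total mRNA does not measure.

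The remaining 10 genes modify the factors or act outside the main complexes, and their 25 probe sets had a median of −0.10, with 2 higher and 4 lower at an unadjusted p under 0.05. Eef2k, the kinase that switches eEF2 off, differed by −0.40, −0.18 and 0.54 at its probe sets. The groups were apart only in the last, 1449013_at, at 6.50, 6.15 and 6.63 in the mutants and 5.84, 6.08 and 5.73 in the controls (adjusted p = 0.169 in limma). Eif2d, which can recycle ribosomes and place initiator tRNA, and Eef1e1, a scaffold protein of the aminoacyl-tRNA synthetase complex, were named after their values were seen. Eif2d read 7.14, 6.74 and 6.39 against 7.65, 7.57 and 7.78 at 1436724_a_at (difference −0.91, adjusted p = 0.0756), and Eef1e1 read 5.88, 4.10 and 4.97 against 6.33, 6.40 and 6.22 (difference −1.33, adjusted p = 0.101). The other Eif2d probe sets differed by −0.44, −0.41, −0.29, −0.02 and 0.13.

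Disagreement within a gene was common. Of the 36 factor genes with at least 2 member probe sets, 27 (75.0%) had differences of both signs, whereas 4576 of the 9012 genes of the array with at least 2 probe sets did (50.8%). Both signs at an unadjusted p under 0.05 occurred in 6 factor genes (16.7%), Eif2s2, Eif3c, Eif3h, Eif4e, Eif4h and Eif5, against 5.36% of all such genes. The factor genes had 3.36 probe sets each on average and all such genes 2.86, so a factor gene had more chances to show both. These shares are descriptions with no test.

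Mutants 2 and 3 often stood apart together. In 24 members (17.5%) both of these lay below every control while mutant 1 did not, which held for 5.33% of all probe sets. The same with mutant 2 as the exception held for 2 members (1.46%, array 2.57%) and with mutant 3 for 5 (3.65%, array 3.3%). Above every control, with mutants 1, 2 and 3 in turn as the exception, the counts were 6, 3 and 5 members, or 4.38%, 2.19% and 3.65%, where the array gave 7.36%, 5.57% and 3.92%. Mutant 1 also had the Gapdh 3' minus 5' reading nearest the controls. The Gapdh 3' probe set alone read 11.91, 10.45 and 9.84 in the mutants and 11.96, 11.83 and 12.31 in the controls. The Actb 3' minus 5' reading ran the other way over the mutants. Mutant 1 was at 2.60, below all controls, and mutants 2 and 3 at 3.95 and 4.50, above all controls. The controls there read 3.82, 3.90 and 3.11. Any part of these control readings in the pattern of the mutants was not tested. Without mutant 1, limma called 4 members higher and 23 lower, or 19.7% of the members, where 8.58% of all probe sets were called. Leaving out each of the other mice left 0 members called in limma, with 34 to 44 members at an unadjusted p under 0.05. In those fits the whole array held 0 to 3 called probe sets, with 7548 to 11775 at an unadjusted p under 0.05, so the loss was not particular to the members.

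The proteins that act on these factors were followed through 36 genes, of which 35 had 80 probe sets with a median of −0.11. At the adjusted p in limma, 0 were higher and 3 lower, or 3.75% of the 80. Of all probe sets 2.13% were called in either direction and 0.8% lower. The heme-regulated eIF2 kinase Eif2ak1 read 7.10, 6.76 and 6.49 in the mutants and 7.87, 8.07 and 8.11 in the controls at 1421901_at, and fell by 1.23 (adjusted p = 0.0455 in limma), while its other 4 probe sets differed by −0.39 to 0.44. Ppp1r15b, which directs the phosphatase of eIF2, fell by 1.48 at 1426798_a_at (8.15, 7.18 and 7.35 against 9.08, 8.95 and 9.08, adjusted p = 0.0467), and Abce1, which splits ribosomes after termination, fell by 1.27 at 1416015_s_at (6.46, 5.65 and 5.89 against 7.23, 7.15 and 7.44, adjusted p = 0.0499). The other Ppp1r15b probe set differed by 0.15 and the other Abce1 probe sets by −0.54 and −0.83, with groups not fully apart in any. The 3 calls, of Eif2ak1, Ppp1r15b and Abce1, were lost with quantile normalization, at 0.0520 to 0.0585, with mutant 3 and control 1 as a block, at 0.0519 to 0.0656, with the replicate block, at 0.184 to 0.191, and without any 1 mouse other than mutant 1, at 0.0965 to 0.186. At an unadjusted p under 0.05, 11 of the 80 were higher and 9 lower, or 13.8% and 11.2%, near the 15.7% and 9.53% of all probe sets.

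Markers of the liver's cell types were set beside these values, as the factors are expressed in all of them. Alb, the defining product of hepatocytes, read 13.40 to 14.20 over the 6 mice. Hepatocyte markers had a median of −0.35 over 15 probe sets of 6 genes, with 0 past the adjusted p in limma and 1 higher and 0 lower at an unadjusted p under 0.05, and their median reading per mouse, centred like those above, was 0.12, −0.21 and −0.31 in the mutants and 0.09, 0.09 and 0.19 in the controls. Sinusoidal endothelial markers had a median of 0.69 over 11 probe sets of 7 genes, with 10 above 0 and 1 below. At the adjusted p in limma 2 of them were higher, where 1.33% of all probe sets were. Stab2 rose by 1.82 (adjusted p = 0.0363) and Stab1 by 1.39 (adjusted p = 0.0491). At an unadjusted p under 0.05, 6 were higher and 0 lower, while Kdr and Pecam1 differed by 0.17 and 0.20 and overlapped between the groups. Kupffer cell markers had a median of 0.36 and bile duct markers of 0.34, where the median of all probe sets was 0.17. Stellate markers had a median of 0.08 and lymphocyte markers of 0.04, and the 1 erythroid probe set differed by −0.52. The part of these shifts in the factor differences was not tested.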

How the data were processed

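Liver RNA of 3 mutants and 3 controls was hybridised to 1 array per mouse. The deposited log2 values, 1 per probe set and array, are dChip model estimates made by the authors from perfect-match probes after normalization. These, from 0 to 14.63 with 40 at exactly 0, were used unchanged. The array named in the methods is a C. elegans one, yet the probe sets in the file carry mouse array names. No dChip version was given. No background values came with the file, and 3 arrays per group limit the precision.

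Groups, ages and replicate numbers follow the sample labels. All 45101 probe sets entered limma 3.58.1 (lmFit, then eBayes) under R 4.3.3, with Benjamini-Hochberg adjustment over all of them. For single measurements an exact permutation test, two-sided, took all 20 ways to assign 3 mice to each group. The scripts were tested on simulated data. Gene symbols are those of the platform annotation, and promoters are from RefSeq. The members, complexes and lists were chosen with earlier results of these data known. The named genes follow a rule: genes with a called member, a set of factors of general interest, and genes whose probe sets oppose at an unadjusted p under 0.05. Eif1ax, Eif1a, Eif1b, Eif2b1, Eif4e3, Eif4g2, Eif5b, Eif2d, Eef1e1 and Eef1a2 fall outside this rule, having been picked once their values were known, as were Eif2ak1, Ppp1r15b, Abce1, Stab1 and Stab2. Eif4enif1 also falls outside it and is named only to complete its group. The settings varied were the normalization (quantile, or centring on the median), the probe sets kept (bright ones, the brightest or mean per gene, those with 1 symbol), the eBayes options trend and robust, age as covariate, a replicate block, and each mouse left out. An unadjusted p, leaving out mutant 2 with control 3, and mutant 3 with its concurrent control 1 as a block were added after seeing the data.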

Additional observations from a re-analysis of the deposited data

How the results depend on the processing

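Of the members, limma called 1 higher and 2 lower. It called 0 and 0 with quantile normalization, with centred arrays, with the mean of the probe sets per gene, with the replicate block, without mutant 2 and control 3 together, and with mutant 3 and control 1 as a block, where 44, 51, 13, 38, 38 and 44 members had an unadjusted p under 0.05. Of all features those settings called 1.66%, 0.707%, 2.76%, 0.0%, 0.0% and 0.931%. It called 7 higher and 10 lower members among bright probe sets (17.0%, all features 13.7%), 3 and 3 with the brightest probe set per gene (11.5%, all 9.03%), 3 and 1 with trend and robust options (2.92%, all 3.3%), 4 and 3 with age as covariate (5.11%, all 5.65%) and 3 and 2 among probe sets with 1 symbol (3.65%, all 3.79%), so the share of calls moved over the whole array as well, and 17 and 28 at an unadjusted p. Leaving out each mouse in turn gave 0 to 4 higher and 0 to 23 lower. Same-numbered mice had correlations of their deviations of 0.06, −0.50 and −0.56, and not every mouse correlated best with its own number. The deviations are from group means of 3 arrays, so these correlations constrain each other and cannot decide whether the numbers pair the mice. The pair that the labels tie together, mutant 3 and control 1, had 0.45, and no other pairing is labelled. That value was not particular to the labelled pair, since mutant 2 with control 3 had 0.62 and mutant 3 with control 2 had 0.40. With the median of all probe sets at 0.17, centring moved it to 0.01 and quantile normalization to 0.04. The median of the members became −0.22 when centred and −0.26 with the brightest probe set per gene. That of eIF2 became 1.10 among bright probe sets, 1.23 with the brightest and 0.18 with the gene mean, that of eIF2B 0.01 with quantile normalization and −0.05 centred, and that of eIF3 −0.32 among bright probe sets and −0.50 with the brightest. The eIF4F median became −0.39 with the brightest, that of the eIF4E inhibitors 0.10 centred and 0.08 with the gene mean, and that of subunit joining −0.04 centred and 0.02 to 0.27 without each mouse. The modifiers became −0.28 with quantile normalization, −0.26 centred, 0.10 with the brightest and −0.21 to −0.03 without each mouse. The cause of these shifts was not tested. Signal over background is unknown, which limits every low reading.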

Other observations

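Probe sets that name a factor together with another gene were left out of the members. The pair for Eef1g, a scaffold of the elongation complex, differed by −0.08 at 1417364_at, with readings of 10.76, 10.59 and 10.20 in the mutants and 10.57, 10.56 and 10.66 in the controls, and by 0.55 at 1458955_at. The 3 shared by the eIF3 genes Eif3j1 and Eif3j2 differed by 0.00, −0.68 and −0.58, and the one shared by Eif4ebp3 and Ankhd1 by 0.04. None passed the adjusted p in limma, where those with an unadjusted p under 0.05 were 1458955_at and 1426395_s_at.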
